A study of Mus musculus with 20 samples.

Results

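A pair of small molecules acting on nuclear receptors was set against each other in mouse bone marrow-derived macrophages: GW3965, a synthetic agonist of the liver X receptors (LXR), given alone, and DSHN, described by the submitters as an agonist of NR0B2, given alone. The contrast used the 5 libraries titled GW3965 and the 5 titled DSHN, 10 of the 20 libraries of the series, chosen by title and treatment label. Bone marrow cells of C57BL/6 female mice were differentiated with M-CSF at 20 ng/mL (spelled M-DSF in the labels), given fresh medium on day 7, plated at 700000 cells per well and treated for 24 h with DMSO, with 50 µM DSHN, with 1 µM GW3965 or with both. All 4 groups shared strain, sex and culture, and the labels record no genetic change. The 2 compounds were used at different concentrations, so each difference below is between 2 treatments as given and not between compounds at a matched dose. The labels call the 5 libraries of a group biological replicates without saying whether they came from separate animals or cultures, and p-values measure the spread between these libraries. DMSO libraries entered no test and are quoted only to show where vehicle-treated cells stood.

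LXRs are transcription factors that bind oxidised cholesterol derivatives, pair with retinoid X receptors and switch on genes for cholesterol export, fatty acid synthesis and clearance of dying cells. In macrophages they are best known for loading cholesterol onto lipoproteins through the transporters ABCA1 and ABCG1. NR0B2, also called small heterodimer partner, lacks a DNA-binding domain and represses other nuclear receptors, LXR among them, by binding to them. The series text names that repression as its starting point, and the direct contrast asks which genes separate the LXR agonist from the NR0B2 agonist.

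LXR with its partner classically binds a DR4 element, a pair of short sites of the same direction 4 bases apart. Promoter windows of 250 bases before the annotated start were taken from RefSeq (GRCm38.p6, an earlier build than the GRCm39 of the counted genes) and searched on both strands for the letters GGTNA, then any 5 bases, then GGTNA again (N is any base), a loose spelling of that element. The letters were found in 0.621% of the 32851 windows of that length. A gene can have several windows, and the shares of gene sets count genes with a match in any window. On that count 46 of 10090 tested genes with a window (0.456%) held the letters. Of the 64 genes called over 2-fold higher with GW3965, 50 had a window and 4 of them (8.0%) held the letters: Abca1, Srebf1, Fasn and Acsl3. Over all called genes with a window, 11 of 810 (1.36%) higher with GW3965 and 2 of 889 (0.225%) higher with DSHN held them. Abcg1, Scd1 and Scd2 have no window in the table. The windows of these 4 genes are shown because all 4 were among the most GW3965-higher lipid genes. Their matches, in capitals and read on the strand opposite to the gene, are nearly the same 15 letters. The search fixed every letter not written N, so part of that likeness was set in advance. The Abca1 window (chr4:53159896-53160145, minus strand) has its match 67 bases before the start, the Srebf1 window (chr11:60210472-60210721, minus strand) 182, the Fasn window (chr11:120824548-120824797, minus strand) 225 and the Acsl3 window (chr1:78657575-78657824, plus strand) 112.
Abca1: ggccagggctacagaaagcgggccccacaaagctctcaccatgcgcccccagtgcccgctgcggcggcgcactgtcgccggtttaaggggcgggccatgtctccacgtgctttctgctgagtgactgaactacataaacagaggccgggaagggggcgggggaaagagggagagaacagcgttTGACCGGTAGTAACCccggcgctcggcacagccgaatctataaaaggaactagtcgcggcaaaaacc
Srebf1: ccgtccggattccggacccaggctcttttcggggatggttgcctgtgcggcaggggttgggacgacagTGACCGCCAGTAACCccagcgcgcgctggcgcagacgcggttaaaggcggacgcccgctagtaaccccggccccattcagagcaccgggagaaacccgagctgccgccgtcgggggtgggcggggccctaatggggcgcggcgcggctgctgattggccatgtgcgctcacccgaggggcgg
Fasn: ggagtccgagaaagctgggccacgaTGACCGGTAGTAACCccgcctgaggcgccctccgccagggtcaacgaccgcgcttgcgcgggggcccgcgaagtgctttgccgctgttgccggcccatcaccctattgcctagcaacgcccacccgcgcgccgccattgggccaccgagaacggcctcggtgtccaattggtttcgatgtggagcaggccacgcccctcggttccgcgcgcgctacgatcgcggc
Acsl3: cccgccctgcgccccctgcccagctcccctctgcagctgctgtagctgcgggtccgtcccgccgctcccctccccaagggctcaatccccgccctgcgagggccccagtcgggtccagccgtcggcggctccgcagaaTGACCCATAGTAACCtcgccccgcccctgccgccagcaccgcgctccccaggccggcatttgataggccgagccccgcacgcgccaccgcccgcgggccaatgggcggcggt
Abca1 and Fasn carried the identical 15 letters TGACCGGTAGTAACC, Srebf1 carried TGACCGCCAGTAACC and Acsl3 carried TGACCCATAGTAACC. A match is a description of these letters and not a measured binding site.

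One gene from the opposite side of the contrast is shown for the antioxidant response, the glutathione transferase gene Gsta3 (chr1:21240335-21240584, plus strand). Its window holds the letters TGAC, any 3 bases and GCA, the core of the antioxidant response element bound by NRF2, in capitals, 121 bases before the start.
Gsta3: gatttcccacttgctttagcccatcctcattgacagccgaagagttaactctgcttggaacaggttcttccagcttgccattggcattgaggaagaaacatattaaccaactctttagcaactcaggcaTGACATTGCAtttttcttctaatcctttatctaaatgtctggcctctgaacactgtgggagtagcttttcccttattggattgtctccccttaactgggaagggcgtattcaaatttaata
Those letters were in 2.47% of all windows and, counted per gene, in 2.66% of tested genes with a window. They were in 20 of 889 genes (2.25%) called higher with DSHN and in 31 of 810 (3.83%) called higher with GW3965. In the NRF2 target list 2 of 19 genes with a window (10.5%) held them. Some other lists had a larger share, among them heat shock (2 of 9) and lysosome (3 of 20), and others, such as mitosis, had none. The share was therefore not particular to NRF2 targets. In all, 7 motifs were searched and none was tested.

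Reads were counted for 46318 genes, and the 10 libraries held between 18023716 and 23796561 counted reads. The library totals, the share of reads on mitochondrial ribosomal and transfer RNA, the share on the 100 most counted genes and the slope of expression on exon length did not differ between the 2 groups in exact two-sided permutation tests (adjusted p from 0.317 to 1, smallest possible unadjusted p 0.00794). The slope itself varied within DSHN, at -0.029, -0.013, -0.010, 0.022 and 0.030 in libraries 1 to 5, against -0.0078 to 0.013 with GW3965. Its group means therefore met across slopes of both signs. On this slope libraries 4 and 5 stood apart from libraries 1 to 3 with DSHN. With GW3965 they did not (0.013, 0.0034, -0.0076, -0.00097 and -0.0078). For some genes, such as Ednrb and Mcm4 below, GW3965 libraries 4 and 5 lay on one side of libraries 1 to 3. How far such a split extends was not tested. Leading counts are also given from libraries 1 to 3 alone where that moved them. Macrophage identity was checked on 12 defining markers, all detected, whose summed level was 18277 to 19602 CPM (the usual depth-scaled count unit, here with TMM factors) with DSHN and 16809 to 18966 CPM with GW3965; among the members called, Mertk and Fcgr1 were higher with GW3965, and Itgam and Lyz2 with DSHN. A stromal list (collagen genes leading it) summed to 2439 to 3102 CPM after DSHN and 2547 to 3326 CPM with GW3965, and none of its 6 tested members was called; its part in the results was not tested. Neutrophil and erythroid lists summed to at most 1.22 and 0.287 CPM. Other lists held more. With DSHN and with GW3965, the B cell list summed to 57.2 to 66.5 and 60.8 to 87.9 CPM. The monocyte list summed to 47.0 to 65.0 and 45.1 to 53.3 CPM, and the osteoclast list to 99.3 to 108 and 88.2 to 104 CPM. Among their members Ighm (0.33) and Plac8 (0.47) were called higher with GW3965, and F13a1 (-0.91) with DSHN. Siglecf, from the mast cell, basophil and eosinophil list, was higher with GW3965 (0.97), at low mean levels (1.45 against 0.726 CPM). Of the 9 members of that list only 2 were tested, and the other, Mcpt8, was not called (0.11). Fcer1a, Prss34 and Epx from the same list had no reads in any of the 10 libraries. The part of these lists in the results was not tested. In these bulk libraries, fewer cells of a type and less RNA per cell cannot be told apart.

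The 2 treatments gave different transcriptomes, but mostly by small steps. Of 12887 genes tested, 2103 (16.3%) were called at a Benjamini-Hochberg adjusted p under 0.05 by edgeR's quasi-likelihood test: 1023 (7.94%) higher with GW3965 and 1080 (8.38%) higher with DSHN. Large differences lay on the GW3965 side, where 64 genes (0.497%) were over 2-fold higher, against 17 (0.132%) over 2-fold higher with DSHN. The median called gene differed by 0.26 on the log2 scale, and 1079 called genes differed by less than 1.2-fold. Libraries of the 2 groups did not overlap for 1454 of the called genes (69.1%), while 12.7% of all genes tested had groups that did not overlap. Scaling by total counts alone moved the split to 713 higher with GW3965 and 1501 higher with DSHN, since the median gene then shifted by -0.035. Libraries 1 to 3 alone gave 3089 calls, 1591 higher with GW3965 and 1498 higher with DSHN.

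**Figure D1:**
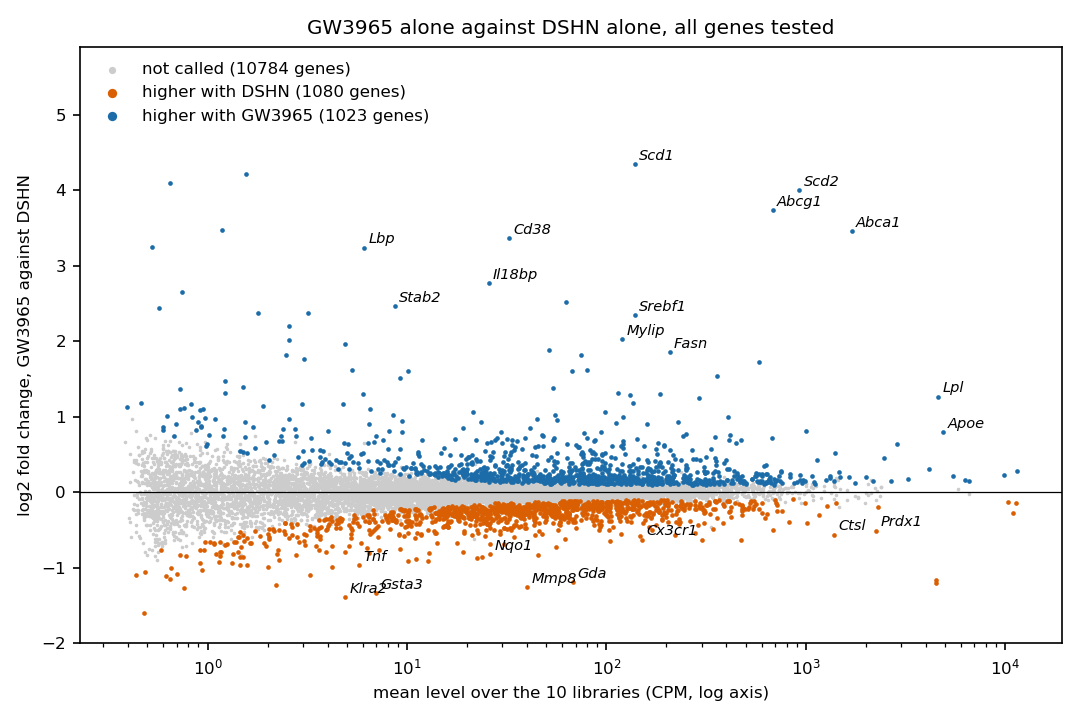
Each point is 1 of 12887 genes, with the mean level of the 10 libraries in CPM on a log axis and the log2 fold change of GW3965 against DSHN on the vertical axis; blue points were called higher with GW3965, orange points with DSHN and grey points were not called. Scd1, Scd2, Abcg1 and Abca1 lie between 3.46 and 4.34 on the log2 scale, while no gene on the DSHN side reaches -2.

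A gene higher with GW3965 than with DSHN can be raised by one compound, lowered by the other, or both. Of the 1023 genes higher with GW3965, the DMSO mean lay below both treatments for 671 (65.6%), between them for 300 (29.3%) and above both for 52 (5.08%). For the 1080 genes higher with DSHN the DMSO mean lay above both treatments for 769 (71.2%), between them for 251 and below both for 60. Over all tested genes the shares were 42.1% below both, 18.1% between and 39.8% above both. These positions rest on means, use the same DMSO libraries for both compounds, and were not tested.

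The genes that LXR is known to drive made the widest gap. Of 16 listed LXR targets 13 were tested. Of these 12 were higher with GW3965 and none with DSHN, with a median difference of 1.62 (log2) against 0.00 over all genes. For this and every list count below, the shares over all genes tested were 7.94% higher with GW3965 and 8.38% with DSHN. The sterol exporter Abca1 measured 206, 234, 291, 342 and 341 CPM in the DSHN libraries and 3564, 3272, 3099, 2790 and 2821 CPM in the GW3965 libraries. Every GW3965 library was above every DSHN library, with a log2 difference of 3.46 (SE 0.12, adjusted p = 1.3e-12). Abcg1, which hands cholesterol to high-density lipoprotein, was at 80, 86.9, 102, 106 and 101 CPM after DSHN and 1417, 1300, 1286, 1134 and 1211 CPM with GW3965. Its difference was 3.74 (SE 0.08, adjusted p = 5.85e-16), and the DMSO mean was 77.8 CPM. For both exporters the DSHN mean was itself above the DMSO mean, 283 against 206 CPM for Abca1 and 95.4 against 77.8 CPM for Abcg1.

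Srebf1 encodes the factor that turns on fatty acid synthesis and is itself an LXR target. It stood at 45.1, 45.5, 43.6, 47.8 and 45.8 CPM with DSHN, next to a DMSO mean of 46.6 CPM, and at 257, 233, 218, 224 and 229 CPM with GW3965, a log2 difference of 2.35 (SE 0.05, adjusted p = 3.3e-16). Mylip, a ubiquitin ligase, was 2.04 higher with GW3965 (SE 0.05), at 179 to 206 CPM against 43.3 to 50.3 CPM. Lpcat3, which builds polyunsaturated phospholipids, was 1.62 higher (SE 0.04). The phospholipid transfer protein gene Pltp (1.54), the macrophage survival gene Cd5l (1.73), the trafficking gene Arl4c (1.00) and Apoe (0.80) were also called, and Apoe went from 2235 CPM with DMSO to 3566 CPM after DSHN and 6189 CPM with GW3965. Smpdl3a was the tested member that was not called (0.06).

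Lbp, encoding the lipopolysaccharide-binding protein, was nearly silent with DSHN (0.884 to 1.55 CPM) and reached 9.65 to 12.7 CPM with GW3965, a difference of 3.24 (SE 0.14). Lpl, the lipoprotein lipase gene, took the opposite course from Abca1 under DSHN. It was 5276 CPM with DMSO, 2596 to 2953 CPM after DSHN and 6154 to 6970 CPM with GW3965, so the DMSO mean lay between the groups and the direct difference was 1.27 (SE 0.05, adjusted p = 1.9e-12). The DMSO mean lay between the treatments for 2 of the 13 tested targets, Lpl and Srebf1, and below both for the other 11.

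**Figure D2:**
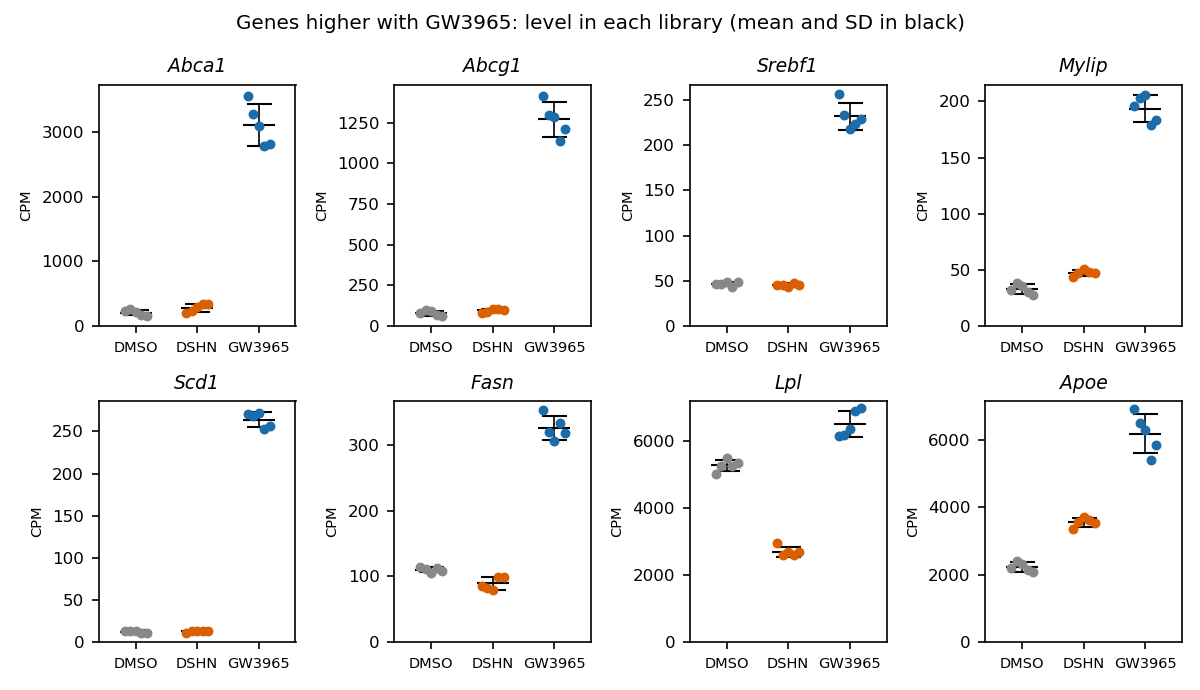
Level in CPM of 8 LXR and lipid genes in each library of the DMSO, DSHN and GW3965 groups (5 points each), with the group mean and SD in black; each axis starts at 0. The GW3965 points lie above all DSHN points in every panel, and the DSHN points of Lpl lie under the DMSO points.

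Receptors and cofactors that carry these signals were called at about the share of all genes tested. Nr0b2, the named target of DSHN, was close to the counting floor: 0 to 3 reads per library with DSHN (8 in all), 0 to 4 with GW3965 (11 in all) and 3 to 8 with DMSO, or 0.0778 ± 0.0551 against 0.108 ± 0.0709 CPM (SD, n = 5; exact two-sided permutation p = 0.460). At that depth no difference was detectable. Nr1h2, encoding LXR beta, was 51.5 to 60 CPM after DSHN and 53.5 to 57.2 CPM with GW3965 (difference -0.02, SE 0.04, adjusted p = 0.809). Nr1h3, encoding LXR alpha, was 9.95 to 13.3 against 12.7 to 15.8 CPM, overlapping groups with a difference of 0.25 (SE 0.08, adjusted p = 0.038) that did not hold under every alternative. Of 13 tested receptors, partners and cofactors 2 were called, Nr1h3 and the coactivator gene Ncoa3 (0.13), beside 16.3% of all genes tested. None had groups that did not overlap, a state in which 6.4% of all genes tested had GW3965 above DSHN.

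Fatty acid synthesis and desaturation was the list with the steepest single genes. Of 22 genes 20 were tested, 14 were higher with GW3965, none was higher with DSHN, and the median difference was 0.43. Scd1, the desaturase that makes oleic acid, had the largest difference among the genes named: 11.1, 13.9, 13.7, 13.3 and 13.2 CPM with DSHN against 271, 269, 272, 253 and 256 CPM with GW3965 (log2 difference 4.34, SE 0.05, adjusted p = 3.6e-19). Scd2, its relative, went from 102 to 123 CPM with DSHN up to 1713 to 1798 CPM with GW3965 (4.00, SE 0.05). The DSHN means, 13 and 109 CPM, lay close to the DMSO means of 12.8 and 103 CPM.

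Fads2, the first desaturase of the polyunsaturated pathway, was 17.6 to 20.2 CPM after DSHN and 102 to 112 CPM with GW3965 (2.53, SE 0.04). Fasn, the fatty acid synthase, was 85.9, 83.2, 79.2, 99.9 and 99.5 CPM after DSHN and 353, 319, 306, 333 and 317 CPM with GW3965 (1.86, SE 0.06), and its DMSO mean of 110 CPM lay between. Acsl3, an acyl-CoA synthetase, was 1.89 higher; it shares 419 exon bases with Utp14b on the same strand. Acaca, the acetyl-CoA carboxylase that feeds Fasn, was 1.03 higher, and Elovl5, an elongase, 0.71 higher. Elovl6 (0.27), Dgat2 (-0.49) and Me1 (0.07) were not called.

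Cholesterol synthesis and uptake genes were higher with GW3965 almost as a block: 23 of 26 tested, none higher with DSHN, a median of 0.49, and all 23 without overlap of the groups. These are the genes that SREBP2 controls. Insig1, which holds SREBPs in the endoplasmic reticulum, was 60 to 67.8 CPM after DSHN and 127 to 140 CPM with GW3965 (1.07, SE 0.04, adjusted p = 3.9e-12). Fdps, the farnesyl diphosphate synthase gene, was 35.6 to 40.9 CPM against 68.9 to 81.2 CPM (0.96, SE 0.05).

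Hmgcs1, which makes the precursor of mevalonate, was 0.47 higher with GW3965 (88.4 against 123 CPM), Sqle 0.36 higher and Srebf2 itself 0.30 higher. The DMSO mean lay between the treatments for 14 of the 26 genes, below both for 10 and above both for 2. Scap (0.02), Insig2 (0.01) and Ebp (0.12) were not called. CCAAT letters, bound by NF-Y, were in windows of 17 of 19 genes of this list (89.5%). They were in 33.8% of all windows and, counted per gene, in 40.6% of tested genes with a window. The share was about as high in the mitosis list, 15 of 17 (88.2%), and in the MHC class II list, 6 of 7 (85.7%). A sterol regulatory element spelling, TCACNCCAC on both strands, was in 1 of 19 genes of the cholesterol list (5.26%). It was in 1.26% of tested genes with a window and in 1.05% of all windows. No list held more than 1 gene with these letters. List shares ran from 0.0%, as in the mitosis list, to 25.0% in the aryl hydrocarbon receptor list (1 of 4).

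Several genes outside lipid synthesis were among the 10 largest on the GW3965 side. Cd38, an ectoenzyme that consumes NAD, was 5, 5.77, 6.33, 6.02 and 5.76 CPM after DSHN and 59.8, 65.3, 59.3, 58.2 and 54.2 CPM with GW3965 (3.36, SE 0.07, adjusted p = 3.8e-16). Il18bp, the secreted decoy that binds interleukin 18, went from 5.25 to 7.18 CPM with DSHN up to 43.1 to 48.7 CPM (2.77, SE 0.07); it shares 1356 exon bases with Rnf121 on the same strand. Stab2, a scavenger receptor for hyaluronan and apoptotic cells, was 2.17 to 3.25 against 13 to 17 CPM (2.47, SE 0.11). Il1a, the interleukin 1 alpha gene, was 0.837 to 1.27 against 4.65 to 6.1 CPM (2.37, SE 0.14). The DMSO means of these 4 genes, 4.36, 4.45, 1.78 and 0.80 CPM, lay below both treatments.

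Clearance of dying cells and lipid storage leaned the same way. Of 14 efferocytosis genes tested 6 were higher with GW3965 and none with DSHN. The phosphatidylserine-bridging receptor kinase gene Mertk was 138, 149, 160, 173 and 168 CPM after DSHN and 330, 316, 298, 276 and 289 CPM with GW3965 (0.94, SE 0.06, adjusted p = 4.4e-09), with a DMSO mean of 114 CPM. Its relative Axl was 0.41 higher and the scavenger receptor gene Scarb1 0.62 higher, while Tyro3 (-0.13), Gas6 (-0.06) and Mfge8 (0.03) were not called. Of 14 lipid-laden macrophage genes 7 were higher with GW3965, with Fabp5, a fatty acid chaperone (0.78), the lipid-droplet coat gene Plin2 (0.43) and Trem2 (0.31). Spp1, encoding osteopontin, was the 1 member higher with DSHN (-0.34), at 663 to 752 against 545 to 561 CPM, under a DMSO mean of 1357 CPM.

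Smaller steps of the same sign were seen in lipid oxidation and lysosomal genes. Among 16 tested PPAR and oxidation genes 7 were higher with GW3965, including the carnitine carrier Slc25a20 (0.32) and Pparg (0.27), and none with DSHN. Of 25 lysosomal genes 11 were higher with GW3965, at 0.12 to 0.29, with Ctsb the named example at 9973 to 10906 CPM after DSHN and 11462 to 13811 CPM with GW3965 (0.28, SE 0.05); it shares 774 exon bases with Fdft1 on the other strand. Leaving out DSHN replicate 2 brought that count to 7. Ctsl, encoding cathepsin L, went the other way: 1607 to 1728 CPM with DSHN, 1092 to 1143 CPM with GW3965 and 2091 CPM with DMSO (-0.56, SE 0.03, adjusted p = 1.3e-09).

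On the DSHN side, NRF2 targets were among the lists with many called members. NRF2 is the transcription factor that answers electrophiles and oxidants by raising glutathione synthesis, quinone reduction and thioredoxin recycling. Of 23 tested targets 15 were higher with DSHN and 3 with GW3965, with a median of -0.17. Gsta3, whose window is printed above, was 8.52, 11, 9.34, 10.3 and 10.9 CPM after DSHN and 3.99, 4.24, 3.36, 3.56 and 4.63 CPM with GW3965 (-1.33, SE 0.10, adjusted p = 5.8e-08). Its DMSO mean, 4.94 CPM, was close to the GW3965 level. Nqo1, the quinone reductase gene, was 31.6 to 35.4 CPM after DSHN and 17.2 to 19.8 CPM with GW3965 (-0.82, SE 0.05, adjusted p = 8.2e-09), on either side of the DMSO mean of 26.5 CPM.

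Gclm, the modifier subunit of the enzyme that starts glutathione synthesis, was 316 to 343 CPM after DSHN and 212 to 240 CPM with GW3965 (-0.54, SE 0.04), and DMSO stood at 229 CPM. Slc7a11, the cystine importer, was 11.4 to 16.8 against 6.57 to 8.88 CPM (-0.88, SE 0.11). Prdx1, a peroxidase, was 2544 to 2776 against 1784 to 1929 CPM (-0.51, SE 0.04). Srxn1 (-0.50), Gsr (-0.43) and Txnrd1 (-0.26), which recycle peroxiredoxin, glutathione and thioredoxin, were also higher with DSHN. The catalytic subunit Gclc differed by -0.16, and Hmox1, the heme oxygenase gene often read as the NRF2 marker, was not called (0.08).

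The 3 members higher with GW3965 were Ephx1, an epoxide hydrolase (0.72), Osgin1 (0.22) and the pentose phosphate enzyme gene Tkt (0.21). For 11 of the 23 genes the DMSO mean lay between the treatments and for 11 below both. Ferritin heavy chain Fth1 (-0.27) and light chain Ftl1 (-0.13, overlapping groups) were both higher with DSHN, while Slc40a1, the iron exporter, was higher with GW3965 (0.21) and stood at 599.8 to 632 CPM with DSHN against 303 CPM with DMSO.

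**Figure D3:**
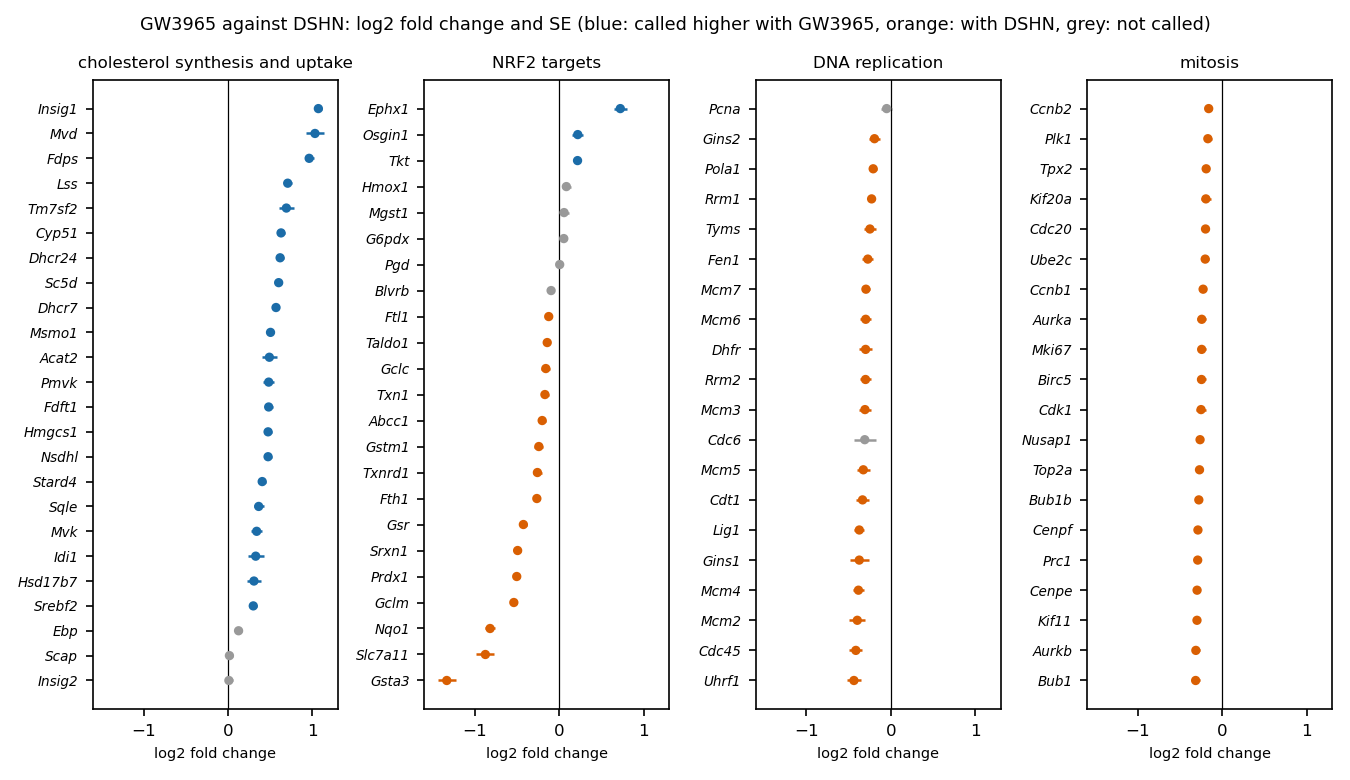
Log2 fold change of GW3965 against DSHN (point) and its SE (line) for tested members of 4 lists, with 24 of the 26 cholesterol genes drawn; blue members were called higher with GW3965, orange with DSHN and grey were not called. Cholesterol genes lie to the right of 0, NRF2 targets spread from Gsta3 at -1.33 to Ephx1 at 0.72, and replication and mitosis genes form narrow bands left of 0.

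Genes of proliferating cells were lower with GW3965 in nearly every case. Of 20 mitosis genes all 20 were higher with DSHN, with a median of -0.25, and of 20 replication genes 18 were, with a median of -0.30. The kinesin gene Kif11, which separates spindle poles, was 159 to 177 CPM after DSHN and 133 to 143 CPM with GW3965 (-0.30, SE 0.04, adjusted p = 2.4e-05), beside 178 CPM with DMSO. Cenpe, a kinetochore motor (-0.30), and Bub1b, a spindle checkpoint kinase (-0.28), were lower by similar amounts. Groups did not overlap for 15 of the 20 mitosis genes, against 6.28% of all genes tested with GW3965 below DSHN.

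Among replication genes the helicase subunit Mcm4 was 114, 110, 96, 104 and 108 CPM after DSHN and 75.3, 73.6, 77.4, 94.8 and 86.4 CPM with GW3965 (-0.38, SE 0.06), and Lig1, the replicative ligase, differed by -0.37. GW3965 libraries 4 and 5 were the nearest to DSHN, and libraries 1 to 3 alone gave a median of -0.47 for the list. Groups did not overlap for 8 of the 20. The DMSO mean was above both treatments for all 20 replication genes and for 13 of 20 mitosis genes, and lay between them for the other 7. Pcna (-0.05) and Cdc6 (-0.31) were not called. TTTGAA, the cell cycle homology region of many G2/M genes, was in 8 of 17 mitosis genes with a window (47.1%). It was in 12.9% of tested genes with a window and in 16.0% of all windows.

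Genes of mixed function were among the 10 largest differences on the DSHN side. Gda, guanine deaminase, was 91.9 to 96.7 CPM with DSHN, beside 92.8 CPM with DMSO, and 37.8 to 46.6 CPM with GW3965 (-1.19, SE 0.05, adjusted p = 7.4e-12). Mmp8, neutrophil collagenase, showed the reverse arrangement: 53.4 to 61.5 CPM with DSHN against 20.4 to 26.4 CPM with GW3965 (-1.25, SE 0.06), with DMSO at 27.8 CPM. Klra2, a lectin receptor of the Ly49 family with near-identical relatives, was 6.55 to 7.45 against 1.94 to 3.47 CPM (-1.38, SE 0.13). F13a1, the factor XIII subunit, was 14.6 to 18.2 against 7.26 to 10.2 CPM (-0.91, SE 0.09), and the orphan receptor gene Gpr141 was 27 to 31.1 against 14 to 17 CPM (-0.86, SE 0.06). Cd300e, an activating receptor of monocytes, differed by -0.99 (SE 0.12).

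Of 17 plasminogen and matrix proteolysis genes 8 were higher with DSHN and none with GW3965, all 8 without overlap. Mmp13 was 53.7 to 61.9 against 31.1 to 34 CPM (-0.83, SE 0.05), Mmp9 differed by -0.69, Mmp12 by -0.39, the urokinase receptor Plaur by -0.57 and Adam8 by -0.49. DMSO stood above both treatments for 13 of the 17. Serpinb2, the urokinase inhibitor, was 1.46 to 2.51 against 0.692 to 2.53 CPM, overlapping, and not called (-0.48, SE 0.26, adjusted p = 0.242), while its DMSO mean was 10.1 CPM. Plau was not called (0.00).

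**Figure D4:**
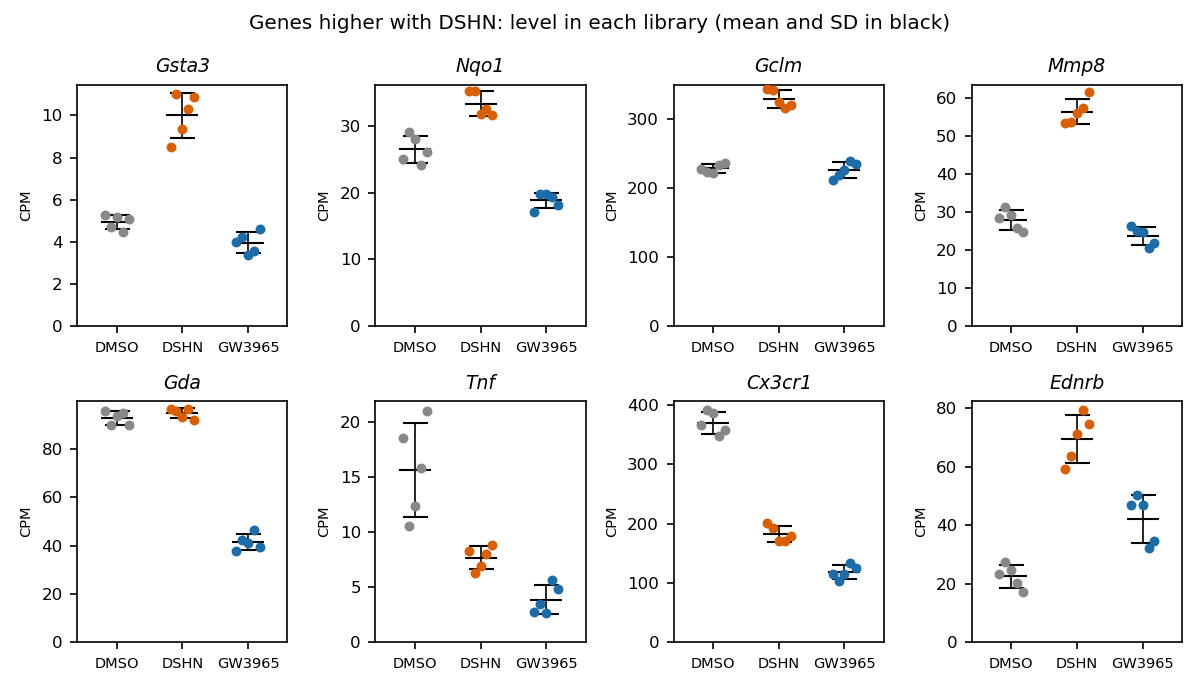
Level in CPM of 8 genes in each library of the DMSO, DSHN and GW3965 groups (5 points each), with mean and SD in black and axes from 0. Gsta3, Gclm and Mmp8 with GW3965 lie near DMSO, Gda with DSHN lies near DMSO, and Tnf and Cx3cr1 fall from DMSO to DSHN to GW3965.

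Inflammatory genes split, with more of them lower under GW3965. Tnf was 15.6 CPM with DMSO, 8.31, 6.29, 6.95, 8.01 and 8.82 CPM after DSHN and 2.77, 3.46, 2.67, 5.69 and 4.82 CPM with GW3965 (-0.97, SE 0.17, adjusted p = 0.00061). Of 11 tested cytokine and enzyme genes 4 were higher with DSHN (Tnf, Acod1, Nfkbia, Il1rn) and 3 with GW3965 (Il18bp, Il1a, Tnfaip3). Among 15 chemokines 5 were higher with DSHN and 1 with GW3965. Ccl6 was 339 to 388 against 257 to 275 CPM (-0.41), Pf4 differed by -0.34 and Cxcl14 by -0.48, while Ccl2 (-0.61) and Cxcl10 (-0.45) were not called.

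Chemoattractant receptors showed 4 of 12 higher with DSHN and none with GW3965. Cx3cr1, the fractalkine receptor, was 370 CPM with DMSO, 170 to 201 CPM after DSHN and 103 to 134 CPM with GW3965 (-0.62, SE 0.06, adjusted p = 1.7e-06). Ccr3 (-0.91) and Ccr1 (-0.67) were ordered the same way, with DMSO means of 28.3 and 33.5 CPM. Immediate early genes had 6 of 19 higher with DSHN and 2 with GW3965, and DMSO above both treatments for 17. Fos, an AP-1 subunit, was 54.2 CPM with DMSO, 12.8 to 14.9 CPM after DSHN and 8.06 to 11.3 CPM with GW3965 (-0.57, SE 0.08), whereas Atf3 was higher with GW3965 (0.45, SE 0.03), at 159 to 172 against 120 to 126 CPM.

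Ednrb, the endothelin B receptor gene, was 22.6 CPM with DMSO, 59.2, 63.6, 71.2, 79.4 and 74.5 CPM after DSHN and 46.8, 50.2, 47, 32.1 and 34.6 CPM with GW3965. DSHN libraries were all above GW3965 libraries, which were all above the DMSO mean (direct difference -0.72, SE 0.11, adjusted p = 0.00013). Dbp, a clock output factor, was not called, and its groups overlapped: 14.8 to 17.4 CPM after DSHN and 11.7 to 19.2 CPM with GW3965, against 6.17 CPM with DMSO (-0.06, SE 0.10, 95% interval -0.26 to 0.15, adjusted p = 0.777); it shares 539 exon bases with Sphk2 on the other strand. Of 17 clock genes 3 were called, near the 16.3% of all genes tested. Bhlhe40 was higher with GW3965 (0.80, SE 0.06), at 36 to 39.3 against 19.8 to 24.6 CPM. Rora was too (0.24, overlapping), and Bhlhe41 was higher with DSHN (-0.20).

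Genes of T cell costimulation and regulation, a list of ligands, receptors and enzymes, moved in either direction. Of 14 tested, 6 were higher with GW3965, the ectoenzyme gene Cd38 (3.36) among them, and 5 with DSHN. The costimulatory ligand gene Cd86 was 5.16 to 6.55 CPM after DSHN and 9.42 to 11.7 CPM with GW3965 (0.81, SE 0.09), and Cd274, encoding PD-L1, was 0.29 higher with GW3965. Tnfsf9, the 4-1BB ligand gene, was 3.35 to 5.49 against 1.76 to 2.62 CPM (-1.09, SE 0.15), and Cd80 (-0.33) and Icosl (-0.30) were likewise higher with DSHN. MHC class II genes had 1 called member in each direction of 10, Ciita (0.68, overlapping) and H2-Ob (-0.76), beside 7.94% and 8.38% of all genes tested. Cd74 (0.15) and H2-Ab1 (0.14) were not called.

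Complement genes included Cfp, encoding properdin, at 351 to 380 CPM after DSHN and 546 to 623 CPM with GW3965 (0.69, SE 0.04, adjusted p = 7.3e-10), among 3 of 11 higher with GW3965 and 1, Cd55 (-0.77), higher with DSHN. Glycolysis and hypoxia genes had 12 of 22 higher with DSHN at -0.09 to -0.27, such as Pgk1 (-0.21) and Slc2a1 (-0.24), while Ndrg1 (0.64) and Vegfa (0.39) were higher with GW3965. Stress-response genes had 7 of 20 higher with GW3965 and none with DSHN, with Ddit3 at 0.36 and Asns at 0.28. Heat shock genes had 2 of 13 higher with GW3965, Hspa1a (1.15, near 1 to 3 CPM) and Bag3 (0.19), beside 7.94% of all genes tested. The type I interferon list had 1 of 18 called, Rsad2 (0.53, overlapping), a share under the 7.94% of all genes tested. Alternative activation genes had 2 of 9 higher with GW3965, Folr2 (0.44) and Msr1 (0.20), and 1 with DSHN, Il4ra (-0.12). Ahrr, the repressor of the aryl hydrocarbon receptor, was higher with DSHN (-0.45, SE 0.06), at 37.4 to 42.4 against 26.2 to 32 CPM.

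**Figure D5:**
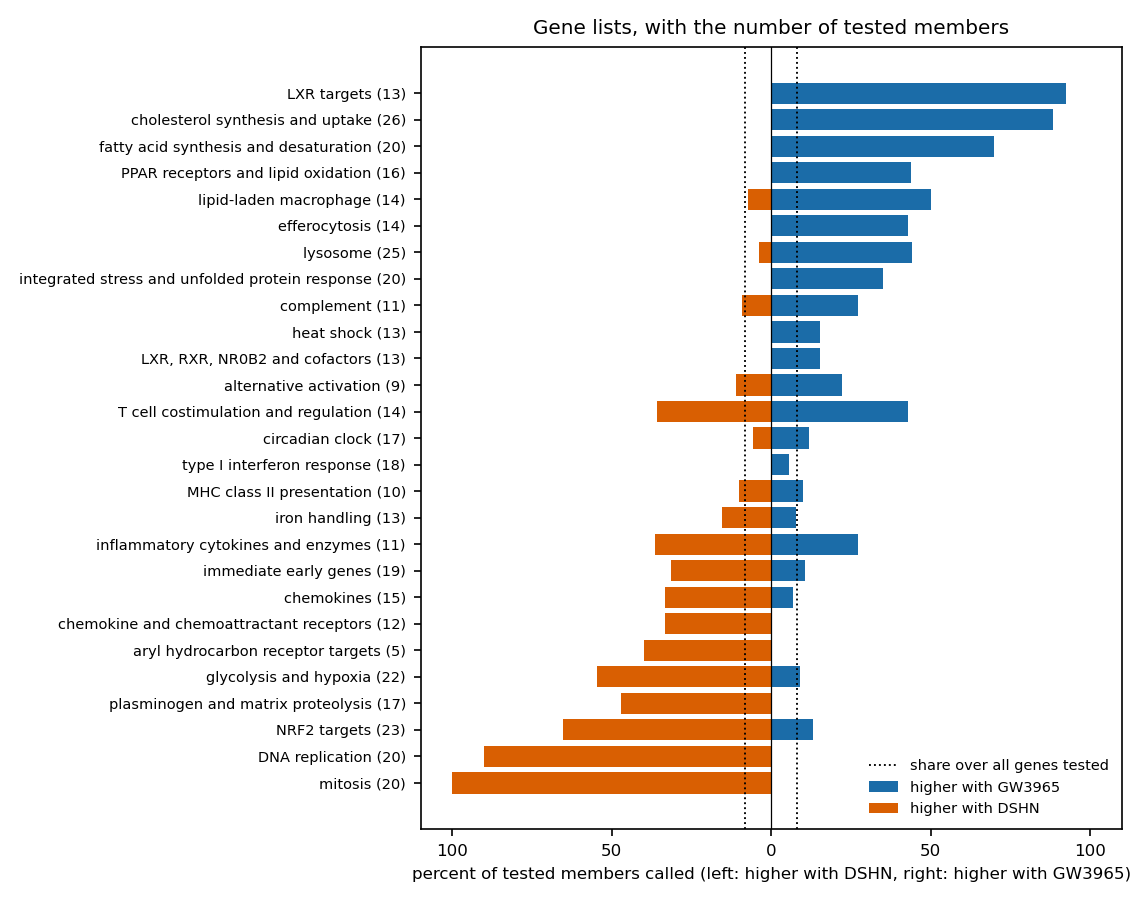
Percent of the tested members of 27 gene lists (number tested in parentheses) called higher with GW3965 (blue, to the right) or higher with DSHN (orange, to the left); dotted lines give the shares over all genes tested, 7.94% and 8.38%. Lipid lists extend to the right, mitosis, replication and NRF2 lists to the left, and cytokine and T cell lists to both sides.

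Most genes were not called, and for many the data bound the difference. Of 10784 genes not called, 6720 (62.3%) had a 95% interval within 1.2-fold in either direction. The other uncalled genes are not shown to be alike in the 2 treatments.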

How the data were processed

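The labels' protocols give a stranded mRNA library kit for all 20 libraries. The aligner was STAR, per the submitters' processing notes (version not given in the sources used here), and the authors deposited raw counts per gene made with featureCounts 2.0.0 on GRCm39 RefSeq exons, per the file headers. The header line names no option for strand or for reads that map to several genes or places, so genes with overlapping exons, antisense partners or near-identical copies (such as Ftl1, Fth1, Pgk1, Hspa1a and Klra2) have uncertain counts. Genes without a name held 0.474% of counts and stayed in the library sizes.

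The 10 GW3965 and DSHN libraries were fitted alone with edgeR 4.0.16 in R 4.3.3: filterByExpr (minimum count 10), TMM factors, quasi-likelihood F-test, Benjamini-Hochberg adjustment over 12887 genes and a threshold of 0.05. Log2 fold changes are GW3965 over DSHN, so positive values are higher with GW3965; unlabelled values in parentheses are these. Levels are mean CPM, not comparable between genes of different length. Intervals have a level of 95%. Replicate pairs all differed by more than counting noise. Replicate numbers did not pair the libraries. The test was checked on simulated counts of 12796 genes, where it recovered 33, 41, 50 and 50 of 50 genes changed 1.25-, 1.5-, 2- and 4-fold, with 7 false calls. Simulated libraries were drawn independently, without any split of libraries within groups. The false calls therefore do not measure the error rate in the real libraries.

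Named genes were the 10 largest called differences in each direction (at least 5 CPM in 1 group, no overlap of groups), up to 3 called genes of each of 27 pathway lists by smallest adjusted p, and 17 genes of the design. Other list members are examples chosen after their values were seen. The contrast, lists and genes were chosen with earlier results of these data known, and list counts carry no test. Of 556 list entries 555 matched a gene. Alternatives were DESeq2 1.42.0 and its size factors, total counts, other filters, limma 3.58.1 voom, a test against 1.5-fold, all 20 libraries, a replicate block, a length correction, each library left out, and, chosen after seeing the data, libraries 1 to 3 alone. Some items are not reported here.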

Additional observations from a re-analysis of the deposited data

Results flagged for a closer look

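In 192 groups of 5 libraries examined (named genes and library measures), 8 had 1 library farther from the others than Dixon's 95% critical value of 0.71 allows; chance flags about 1 in 20 such groups. With DSHN, replicate 1 was high for Lpl (2953 CPM against 2596 to 2683 in the others) and low for Scd1 (11.06 against 13.2 to 13.93 CPM), and replicate 3 was high for Ccl6 (387.6 against 338.6 to 350.8 CPM). With GW3965, replicate 1 was high for Il18bp (48.65 against 43.07 to 44.38 CPM) and low for Pf4 (137.4 against 149.2 to 153.6 CPM) and Ier3 (14.85 against 15.97 to 16.37 CPM). GW3965 replicate 4 was low for Ftl1 (9260 against 9878 to 10013 CPM) and for H2-Ob (0.3112 against 0.6828 to 0.8312 CPM). Of these 8 genes, Ftl1 and H2-Ob were also among the calls that did not hold under every alternative.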

How the results depend on the processing

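Of 91 named genes tested 88 were called, 79 stayed called under every alternative other than the test against 1.5-fold, and none changed direction; Ciita, Ftl1, H2-Ob, Il4ra, Msr1, Ncoa3, Nr1h3, Rora and Rsad2 lost the call under at least 1 of them. Serpinb2 was called without GW3965 replicate 4. DESeq2 called 2128 genes and voom 2095. Tested against 1.5-fold, 85 genes were called, 73 higher with GW3965 and 12 with DSHN, 6 of the latter over 2-fold, by the construction of that test. Without the filter on low counts 98 and 41 genes were over 2-fold higher with GW3965 and with DSHN, and the stricter filter left 8 on the DSHN side. Leaving out 1 library gave 1623 calls (without GW3965 replicate 3) to 2459 (without GW3965 replicate 4). Libraries 1 to 3 alone gave 1591 genes higher with GW3965 and 40 over 2-fold higher with DSHN; list medians became 1.72 for LXR targets, 0.12 for LXR, RXR and cofactors, 0.57 for fatty acid synthesis, 0.081 for the clock, -0.19 for cytokines, 0.0586 for alternative activation, -0.47 for replication, -0.16 for glycolysis, 0.15 for complement and 0.16 for efferocytosis. Total-count scaling gave medians of -0.21 for NRF2 targets, -0.14 for glycolysis, -0.0233 for heat shock and 0.0641 for stress-response genes. With 1 library left out, the median of the T cell costimulation and regulation list ranged from 0.0594 to 0.143. Medians of immediate early genes ranged from -0.18 to -0.10 and of chemokines from -0.39 to -0.24. The mitochondrial RNA difference (percentage points, GW3965 minus DSHN) ranged from 0.00908 to 0.0173, past the threshold of the exact test without DSHN replicate 3. Unless the setting itself removes genes or libraries, the cause was not tested.

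With the replicate block 1450 genes were called, 707 higher with GW3965 and 743 with DSHN, 1444 of them shared with the unblocked fit in the same direction, and 5 lysosomal genes were higher with GW3965. Same-numbered libraries correlated at -0.47, -0.05, 0.14, -0.29 and -0.26, and replicate 3 alone correlated best with its own number, so the numbers give no pairing. Depth limits Nr0b2 and genes near 1 CPM.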

Other observations

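Neighbouring gene models on chromosome 17 (GRCm39), chosen after their values were seen, were the most abundant genes over 2-fold higher with DSHN. AY036118 (40158556 to 40209276, minus strand) had 6228 ± 1459 CPM with DSHN, 2781 ± 1097 CPM with GW3965, 6264 ± 973 CPM with DMSO and 1929 ± 1582 CPM with both compounds (SD, n = 5 each). The direct log2 difference was -1.16 (SE 0.22), with edgeR adjusted p = 0.00143 and no overlap of the GW3965 and DSHN libraries. The adjacent unnamed model (40156247 to 40158063, plus strand), gave nearly the same levels, 6228 ± 1446 and 2721 ± 1017 CPM. How reads that fit several places were counted there is not given in the sources used here.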
